A study of Mus musculus with 2 samples.

Results

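The cyclin-dependent kinase (CDK) inhibitors Cdkn1a, Cdkn1b, Cdkn1c, Cdkn2a and Cdkn2b, the tumor suppressor Trp53 (p53), its regulator Mdm2 and the p53 targets Ccng1, Trp53inp1 and Bbc3 were followed in mouse prostaspheres with and without Sox9. The members were all array spots, other than control spots, that carry one of these 10 gene names. They came to 10 of 27827 gene names, 16 of 41174 probes and 61 of 43379 spots. All 16 probes were well above background in all 4 RNAs and were tested. The rule used names and no measured value, but the members were chosen with earlier results of these data known.

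Prostaspheres are balls of prostate epithelial cells grown in Matrigel, and RNA from 4 such cultures was hybridized to 2 Agilent arrays. In the genotype comparison, C57/Bl6J prostaspheres with wild-type Sox9 treated with tamoxifen (TAM) were labeled with Cy5, and ER-Sox9flox/flox prostaspheres treated with TAM, labeled Sox9 null, were labeled with Cy3. In the treatment comparison, ER-Sox9flox/flox prostaspheres treated with vehicle were labeled with Cy5, and ER-Sox9flox/flox prostaspheres treated with TAM were labeled with Cy3. The source names call the Cy5 RNA SOX9 and the Cy3 RNA Ctrl. Titles, genotypes and treatments were used instead to tell the RNAs apart. In these mice both Sox9 alleles are floxed, and the Cre recombinase that TAM activates is expressed from the Rosa26 locus and so not limited to 1 cell type. All 4 cultures are labeled as prospheres from urogenital sinus epithelium (UGE), taken at 16 dpc, whereas the study's methods start prostaspheres from adult prostate. All had 6 days in Matrigel with dihydrotestosterone and then 6 days of 5 µM TAM or vehicle.

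Each log2 ratio is the brightness of Sox9-expressing RNA over that of Sox9-deleted RNA, so a negative value means a brighter signal where Cre had been activated. The question put to these genes is whether a damage response accompanies active Cre, since p53 targets, the CDK inhibitor Cdkn1a among them, respond to DNA breaks. Activation of Cre and loss of Sox9 occurred in the same 2 RNAs and cannot be told apart. The wild-type culture also received TAM, and the vehicle culture also carries the Cre, so each array holds a different one of these constant. All Sox9-deleted RNA was labeled with Cy3 and both arrays lie on 1 slide, so a dye effect of a probe cannot be told apart from the difference between groups. With 2 arrays (n = 2, SD given throughout), no comparison has a second culture of the same kind behind it. In whole cultures, fewer cells of a type and less RNA per cell cannot be told apart.

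CDK inhibitors of the CIP/KIP family (Cdkn1a, Cdkn1b and Cdkn1c, encoding p21, p27 and p57) bind cyclin-CDK complexes, while the INK4 inhibitors (among them p16Ink4a from Cdkn2a and p15 from Cdkn2b) bind CDK4 and CDK6 and keep them from cyclin D. p53 is a transcription factor that is controlled mainly as a protein: Mdm2 marks it for degradation, and DNA damage stabilizes it. Stabilized p53 then raises transcription of Cdkn1a, of Mdm2 itself and of genes of cell death such as Bbc3 (Puma).

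The targeted gene was read first. The brightest of 3 Sox9 probes gave a brightness of 1634 in wild-type plus TAM and 1198 in vehicle, against 253 and 232 in the Sox9-deleted RNAs, a mean log2 ratio of 2.53 ± 0.23. A second probe had a mean of 1.22, and the third, designed on the same Sox9 transcript, had -1.11, against the direction of the labels. All 9 epithelial markers were well above background in every RNA, as were all 10 stromal markers, among them Vim, Col1a1 and Pdgfra. Of 8 immune and endothelial markers, 4 (Ptprc, Emr1, Cd3e and Pecam1) were not well above background in any RNA. Between 53.88% and 56.22% of all probes were well above background in each RNA.

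Cdkn1a, which p53 transcribes and whose product p21 stops cyclin-CDK complexes, had the most negative mean log2 ratio of the 10 genes. Its 1 probe lies at chr17:29237377-29237436 (mm9, plus strand), on 8 to 10 spots per array, and is shown by its first 30 of 60 bases because the result for Cdkn1a rests on it alone.
Cdkn1a probe: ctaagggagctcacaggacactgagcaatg
The brightness of Cdkn1a was 7054 in wild-type plus TAM and 6116 in vehicle, against 11052 and 11871 in the Sox9-deleted RNAs. Both Sox9-deleted RNAs were thus brighter than both Sox9-expressing RNAs. The log2 ratio was -0.65 on the genotype array and -0.96 on the treatment array. Single spots ranged from -0.68 to -0.62 on the first array and from -0.98 to -0.94 on the second, so the difference between the arrays was larger than that between spots. The mean was -0.80 ± 0.22 (95% confidence interval -1.11 to -0.50, limma), or 1.74-fold brighter in Sox9-deleted RNA. The limma adjusted p was 0.122, above 0.05. Counted from the most negative value, Cdkn1a stood at 0.629% of all 22731 tested probes by mean, at 2.25% on the genotype array and at 0.409% on the treatment array.

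**Figure D1:**
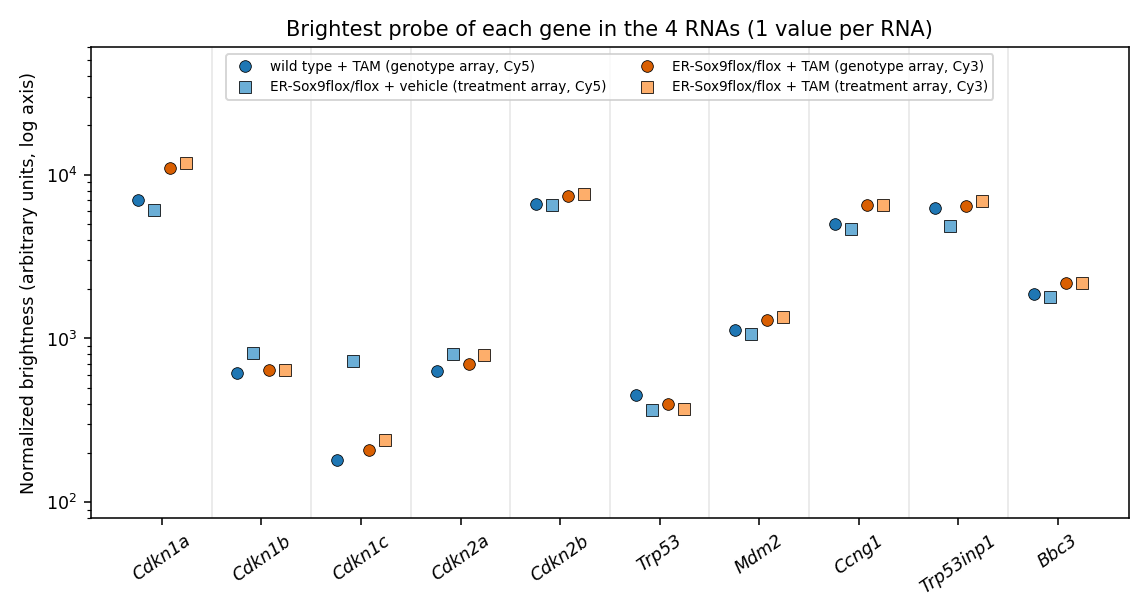
Normalized brightness (arbitrary units, log axis) of the brightest probe of each of the 10 genes in the 4 RNAs, 1 point per RNA, with blue for Sox9-expressing and orange for Sox9-deleted RNA. Brightness can be compared between RNAs for a gene but not between genes. For Cdkn1a, Cdkn2b, Mdm2, Ccng1, Trp53inp1 and Bbc3 both orange points lie above both blue points, and for Cdkn1c the vehicle RNA at 731 stands apart from the other three.

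The region before the start of Cdkn1a is shown because it holds the p53 motif. The motif searched was the p53 half-site, a decamer of 3 purines, C, 2 bases that are A or T, G and 3 pyrimidines, which reads the same on both strands. A full site was counted where 2 half-sites lay 0 to 13 bases apart without overlap. The windows were those of RefSeq on GRCm38.p6, from 250 bases before to 50 after each annotated start. Of 32851 windows, 8.36% held a half-site and 0.0731% held a full site. For 8 of the 10 members the table had 12 windows, and Cdkn1c and Trp53inp1 had no entry. A full site was in 1 of the 12, the window of one annotated start of Cdkn1a at chr17:29090729-29091028. The window of the other start, 2790 bases downstream, held none. Of 43 windows of 32 other p53 targets, a list taken up below, 10 held a half-site and 0 held a full site. The 250 bases before the start (chr17:29090729-29090978, plus strand) are given with both half-sites in capitals. The first begins 73 bases before the start, and 12 bases separate them. Only exact matches are in capitals. The decamer directly after the second half-site departs from the motif at its first base alone and was not counted.
Cdkn1a upstream: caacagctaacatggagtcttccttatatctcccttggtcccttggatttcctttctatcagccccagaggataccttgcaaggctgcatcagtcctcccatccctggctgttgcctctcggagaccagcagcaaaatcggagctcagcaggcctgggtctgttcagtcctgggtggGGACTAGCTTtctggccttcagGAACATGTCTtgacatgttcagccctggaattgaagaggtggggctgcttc

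Half-sites without a partner were in the windows of Mdm2, Ccng1 and Trp53, shown with 10 bases on each side and the half-site in capitals. They are at chr10:117710925-117710954 (minus strand), chr11:40755452-40755481 (minus strand) and chr11:69580274-69580303 (plus strand).
Mdm2 half-site: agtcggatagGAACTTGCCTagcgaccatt
Ccng1 half-site: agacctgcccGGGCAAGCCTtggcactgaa
Trp53 half-site: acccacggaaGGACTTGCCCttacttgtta
The windows of Cdkn2a, Cdkn2b, Cdkn1b and Bbc3 held no match of these letters. A match describes letters in a window and was not tested as a site of p53 binding, which was not measured here.

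Cdkn1b, encoding p27, had 3 probes that did not share a direction. The brightest lies at chr6:134871103-134871161 and has 10 spots per array. A second lies downstream at chr6:134875215-134875274, and the third, designed on another transcript, lies between them at chr6:134873606-134873665 (all mm9, plus strand). The first is given whole and the others by their first 30 bases, to show that they read different stretches.
Cdkn1b probe 1: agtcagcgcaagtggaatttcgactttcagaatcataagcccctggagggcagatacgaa
Cdkn1b probe 2: ttcattgcctgtgtatgagaaaaacttgga
Cdkn1b probe 3: attagccaagcaaccataagactctagtca
The brightest probe had a brightness of 615 in wild-type plus TAM and 820 in vehicle, against 643 and 641 in the Sox9-deleted RNAs, so that only the vehicle RNA was apart. Its log2 ratios were -0.063 and 0.36 (mean 0.15 ± 0.30, adjusted p = 0.597, limma), with a 95% interval of -0.22 to 0.51. The second probe gave -0.81 and 0.31, and the third gave 1.27 and 0.43. The third was the only one of the 16 probes with both Sox9-deleted RNAs (184 and 163) dimmer than both Sox9-expressing RNAs (446 and 220), with a mean of 0.85 ± 0.59 and an adjusted p of 0.216 (limma). The number for Cdkn1b therefore depends on the probe, and no direction is given for the gene.

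Cdkn1c, encoding p57, was bright in 1 RNA. Its brightness was 181 in wild-type plus TAM, 209 in Sox9-deleted RNA of the same array, 731 in vehicle and 239 in Sox9-deleted RNA of that array. The wild-type RNA was the dimmest and the vehicle RNA the brightest, so the 2 Sox9-expressing RNAs lay on opposite sides of the Sox9-deleted ones. The log2 ratios were -0.20 and 1.61, the mean was 0.71 ± 1.28 and the adjusted p was 0.496 (limma). In the treatment comparison Cdkn1c ranked at 99.6% of the tested probes from the most negative. The summed brightness of the stromal markers was likewise lowest in wild-type plus TAM (36533) and highest in vehicle (93394), with 62373 and 56403 in the Sox9-deleted RNAs. Of these 10 markers, 9 had a negative log2 ratio on the genotype array and a positive one on the treatment array, with medians of -0.74 and 0.67. Opposite signs, in either order, were found for 32.9% of all tested probes. The part of stromal cells in the values of Cdkn1c was not tested.

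The INK4 genes differed less. Cdkn2a encodes p16Ink4a and p19Arf from different first exons, and its 1 probe, at chr4:88920545-88920604 (mm9, minus strand), does not name one of them. Its brightness was 637 in wild-type plus TAM and 801 in vehicle, against 696 and 790 in the Sox9-deleted RNAs, so the groups overlapped. The log2 ratios were -0.13 and 0.019, and the mean of -0.054 ± 0.10 (adjusted p = 0.755, limma) had a 95% interval of -0.29 to 0.18. Cdkn2b lies beside it, with its probe at chr4:88952437-88952496 (mm9, minus strand). Its brightness was 6660 in wild-type plus TAM and 6545 in vehicle, against 7379 and 7591 in the Sox9-deleted RNAs. The groups did not overlap, but the difference was small, with log2 ratios of -0.15 and -0.21 and a mean of -0.18 ± 0.047 (95% interval -0.39 to 0.030, adjusted p = 0.326, limma).

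Trp53, encoding p53, was nearly level at both of its probes. The brighter probe, at chr11:69403134-69403193 (mm9, plus strand), had a brightness of 449 in wild-type plus TAM and 367 in vehicle, against 400 and 371 in the Sox9-deleted RNAs. The groups overlapped. The log2 ratios were 0.17 and -0.015, with a mean of 0.076 ± 0.13 and a 95% interval of -0.17 to 0.32 (adjusted p = 0.677, limma). The other probe had 0.038 and -0.054. These values concern Trp53 RNA, and the amount of p53 protein was not measured. Trp53 and Cdkn2a are on a gene list that the study sorted on these same arrays, so neither was an independent choice.

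Mdm2, the ubiquitin ligase that p53 transcribes and that degrades p53, was read by 2 probes that shared a direction. The brighter, at chr10:117129725-117129784 (mm9, minus strand), is given whole, and the other, at chr10:117126278-117126337, by its first 30 bases, because both read lower in Sox9-expressing RNA at different places of the transcript.
Mdm2 probe 1: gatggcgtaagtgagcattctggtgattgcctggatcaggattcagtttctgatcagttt
Mdm2 probe 2: cattcagaaagactgaatcagaacatggat
The brightness of probe 1 was 1123 in wild-type plus TAM and 1067 in vehicle, against 1305 and 1358 in the Sox9-deleted RNAs, and that of probe 2 was 749 and 637 against 1062 and 1032. At both probes each Sox9-deleted RNA was brighter than each Sox9-expressing RNA. The mean log2 ratio was -0.28 ± 0.093 at probe 1 (95% interval -0.51 to -0.056) and -0.60 ± 0.14 at probe 2. Their adjusted p was 0.229 and 0.133 (limma).

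Ccng1, encoding cyclin G1, an early p53 target that acts with the phosphatase PP2A, had 2 probes with nearly the same values. The brighter lies at chr11:40564413-40564472 and the other at chr11:40562427-40562486 (mm9, minus strand).
Ccng1 probe 1: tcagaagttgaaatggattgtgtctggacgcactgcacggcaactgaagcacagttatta
Ccng1 probe 2: agaaataaaattgctgagtttatctgcaaa
Probe 1 had a brightness of 5033 in wild-type plus TAM and 4647 in vehicle, against 6500 and 6531 in the Sox9-deleted RNAs, and probe 2 had 3713 and 3701 against 4895 and 4805. The groups did not overlap at either. The log2 ratios were -0.37 and -0.49 at probe 1, with a mean of -0.43 ± 0.086 (95% interval -0.65 to -0.21), and -0.40 and -0.38 at probe 2, with a mean of -0.39 ± 0.016. Ccng1 was 1.35-fold brighter in Sox9-deleted RNA at probe 1, with adjusted p of 0.160 and 0.163 at the probes (limma).

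Trp53inp1, a p53 target linked to autophagy and cell death, was less even. The brighter probe, at chr4:11101174-11101233 (mm9, plus strand), had a brightness of 6276 in wild-type plus TAM and 4878 in vehicle, against 6465 and 6888 in the Sox9-deleted RNAs. The vehicle RNA was the one apart, with log2 ratios of -0.043 and -0.50 (mean -0.27 ± 0.32, adjusted p = 0.393, limma). The other probe, at chr4:11098180-11098239, gave 0.16 and -0.19. It is unusual in sequence, since a unit of 26 bases is repeated in tandem, shown here with the first copy in capitals within the first 30 bases.
Trp53inp1 probe 2: AGTACTAATACTTACCACAGCAGGCGagta
Bbc3, encoding the death-promoting Bcl2 family member Puma, was read by 1 probe at chr7:16903403-16903462 (mm9, plus strand). Its brightness was 1872 in wild-type plus TAM and 1785 in vehicle, against 2181 and 2197 in the Sox9-deleted RNAs. The groups did not overlap, with log2 ratios of -0.22 and -0.30 and a mean of -0.26 ± 0.057 (95% interval -0.47 to -0.046, adjusted p = 0.232, limma), or 1.20-fold.

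**Figure D2:**
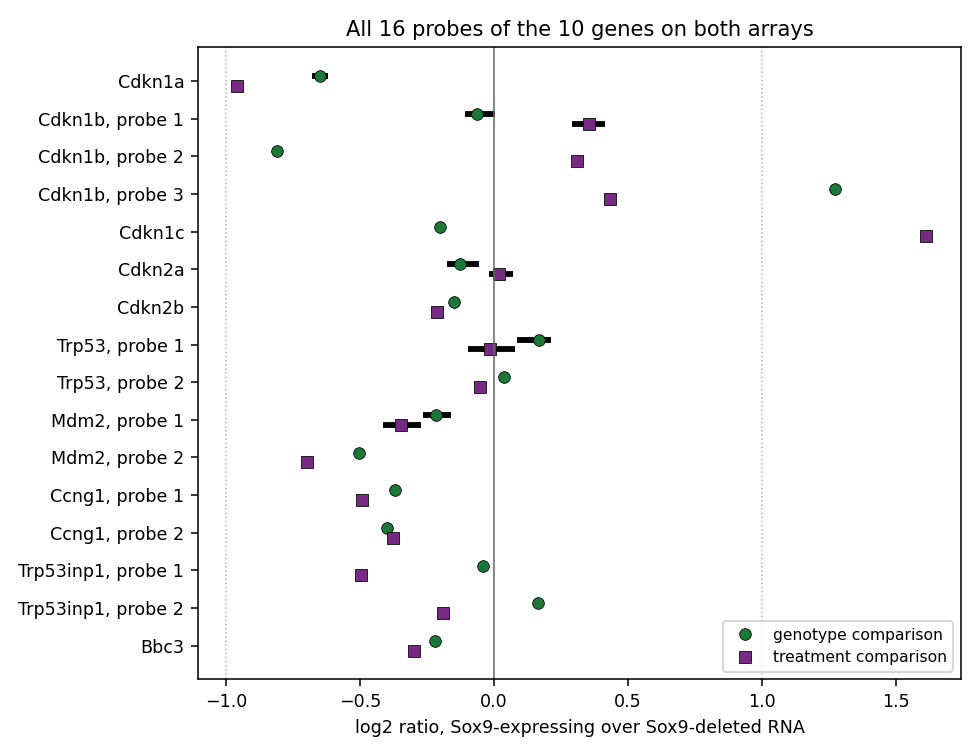
The log2 ratio of Sox9-expressing over Sox9-deleted RNA for all 16 probes, with circles for the genotype comparison and squares for the treatment comparison. Probes of a gene are numbered from the brightest, black bars span the spots of a probe printed more than once, and dotted lines mark a 2-fold difference. Cdkn1a, Mdm2, Ccng1 and Bbc3 lie left of 0 on both arrays at all their probes, while the 3 probes of Cdkn1b scatter from -0.81 to 1.27.

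No member passed the test across the array. At a limma adjusted p under 0.05 the call went to 2 of 22731 tested probes (0.0088%), neither of them a member, and 0 of 10 members passed it. By the brightest probe of each gene, 4 of 10 members (Cdkn1a, Ccng1, Mdm2 and Bbc3) were lower with Sox9 at an unadjusted p under 0.05 in limma, against 8.06% of all tested probes, and 0 were higher, against 9.48%. The methods' t-test on the same values gave 0 probes after adjustment and 1925 at an unadjusted p under 0.05. By the brightest probe, the log2 ratio was negative on both arrays for 6 members, against 32.6% of tested probes. It was positive on both for 0, against 34.5%, and of opposite sign for 4 (Cdkn1b, Cdkn1c, Cdkn2a and Trp53), against 32.9%. Over all 16 member probes, 8 were negative on both arrays, 1 (the third of Cdkn1b) was positive on both and 7 had opposite signs. In limma without adjustment, 6 of these 16 passed the same limit as lower and 1, that Cdkn1b probe, as higher. Both Sox9-deleted RNAs were brighter than both Sox9-expressing RNAs for the same 6 members as were negative on both arrays, against 25% of tested probes, and dimmer for 0, against 26.9%. A 2-fold difference that both arrays shared in direction was reached by 0 members and by 0.418% of tested probes. The median of the 10 mean log2 ratios was -0.22 (-0.18 in the genotype and -0.26 in the treatment comparison), against 0.0068 over all tested probes. Of the 9 epithelial markers, 4 (Cldn4, Cldn7, Krt18 and Cdh1) were negative on both arrays, as Cdkn1a was, and 4 (Krt5, Krt14, Krt19 and Epcam) were positive on both, with a list median of -0.32. Their summed brightness was 456730 in wild-type plus TAM and 391258 in vehicle against 291720 and 335524 in the Sox9-deleted RNAs, but without the basal keratins Krt5 and Krt14 it was 219288 and 190411 against 236205 and 281057, the other direction. The summed brightness of the 8 immune and endothelial markers was 2474 and 4212 against 3932 and 4807. Among them Cd68, a macrophage marker, had log2 ratios of -0.69 and -0.77, with a brightness of 333 and 318 against 536 and 545, so that its groups did not overlap (adjusted p = 0.101, limma). At their brightest probes Lyz2 (1452 and 3185 against 2708 and 3524) and Kdr (173 and 177 against 163 and 189) overlapped, while Cdh5 (141 and 150 against 153 and 168) did not. Ptprc, Emr1, Cd3e and Pecam1 were not well above background in any RNA. No shift of 1 cell type is read from Cd68 alone, and the part of cell types in the members' values was not tested.

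The count of members depended on how the arrays were centred. With each array centred on its median over all spots in place of loess, the tested probes had medians of 0.017 and 0.38 on the 2 arrays. By the brightest probe, only Cdkn1a of the 6 members then kept a negative log2 ratio on both arrays, with a mean of -0.37. The others had means of -0.033 (Ccng1), 0.018 (Mdm2), 0.065 (Bbc3), 0.13 (Trp53inp1) and 0.23 (Cdkn2b). Probe 2 of Mdm2 also stayed negative on both arrays (-0.46 and -0.17). Probe 2 of Ccng1 had -0.30 and 0.27, and that of Trp53inp1 0.29 and 0.48. With the tested probes' own median then set to 0, an alternative added after the data were seen, 4 members (Cdkn1a, Ccng1, Mdm2 and Bbc3) were negative on both arrays. Cdkn1a then had a mean of -0.57, Ccng1 -0.23, Mdm2 -0.18, Bbc3 -0.13, Trp53inp1 -0.066 and Cdkn2b 0.036. The shares of tested probes given above are for loess, and none is given for these centrings.

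**Figure D3:**
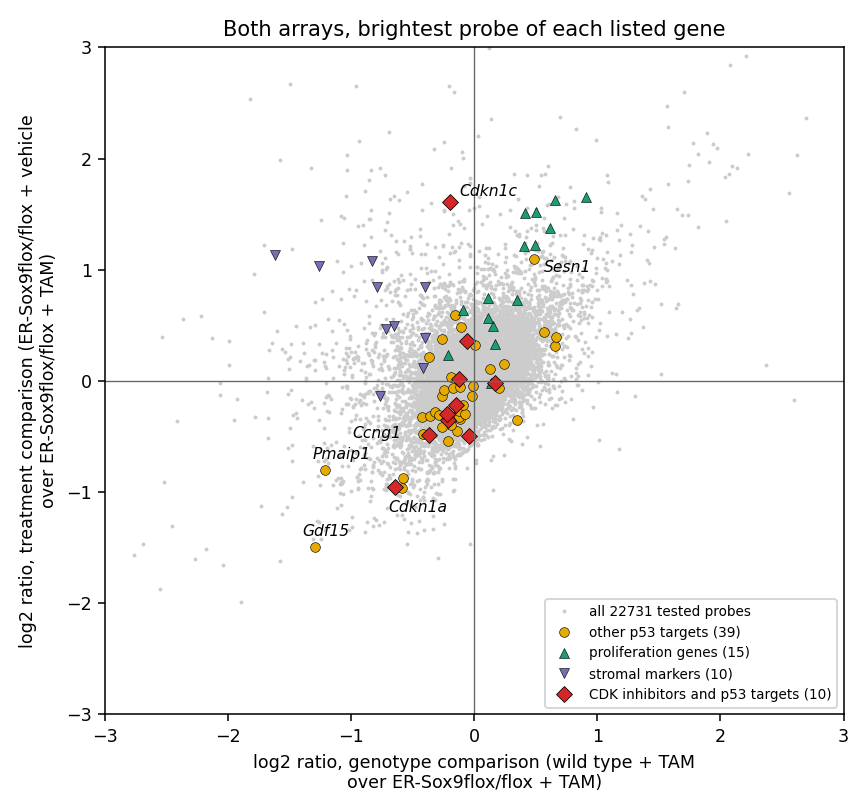
The log2 ratio of the genotype comparison (horizontal) against that of the treatment comparison (vertical), for all 22731 tested probes in gray (11 lie beyond the axes) and the brightest probe of each listed gene. Cdkn1a and Ccng1 lie in the lower left with most other p53 targets, Cdkn1c lies in the upper left with 9 of the 10 stromal markers, and 12 of 15 proliferation genes lie in the upper right.

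Other p53 targets, a list of 40 genes from general knowledge of which 39 were tested, were counted in the same way. Of these, 25 were negative on both arrays, against 32.6% of all tested probes. Another 7 were positive on both, against 34.5%, and 7 had opposite signs, against 32.9%. At an unadjusted p under 0.05 in limma 13 were lower with Sox9, against 8.06% of tested probes, and 4 were higher, against 9.48%. At an adjusted p under 0.05 in limma 0 passed. Both Sox9-deleted RNAs were the brighter ones for 23 of 39, against 25% of tested probes, and the dimmer ones for 7, against 26.9%. The median of the mean log2 ratios was -0.17. Median centring over all spots left 5 of the list negative on both arrays and 10 positive, and centring on the tested probes 23 and 8.

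The most negative was Gdf15, a secreted stress cytokine, with a brightness of 1361 in wild-type plus TAM and 1330 in vehicle against 3342 and 3755 in the Sox9-deleted RNAs. Its mean log2 ratio was -1.40 ± 0.14 (adjusted p = 0.0856, limma), and it was the 1 gene of the list with a 2-fold difference on both arrays. Pmaip1 (Noxa), which promotes cell death beside Bbc3, followed with -1.21 and -0.80, and Plk2, a kinase of the polo family, with -0.59 and -0.96. The brightness of Pmaip1 was 3167 in wild-type plus TAM and 3860 in vehicle against 7347 and 6729. For each of these the groups did not overlap.

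At the other end, Sesn1 (sestrin 1), which restrains mTOR complex 1, had a mean log2 ratio of 0.79 ± 0.43 and was positive on both arrays. Perp, a desmosome protein of stratified epithelia, had log2 ratios of 0.66 and 0.40, and Sfn (14-3-3 sigma), also made by stratified epithelia, had 0.57 and 0.44. Trp63, the p53 relative of basal cells, was 2-fold or more higher with Sox9 on both arrays (1.65 and 1.55, adjusted p = 0.0627, limma), while Trp73 had 0.029 and 0.049. Some further targets were singled out after their values were seen. Bax had -0.42 and -0.48 and Gadd45a -0.29 and -0.31, while Ddb2, a damage recognition protein, had 0.24 and 0.15 and Fas had -0.11 and 0.48.

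Genes that act on p53 or sense DNA breaks stayed close to 0. Of 17 on the list 16 were tested, 4 were negative and 5 positive on both arrays, against 32.6% and 34.5% of tested probes. At an unadjusted or adjusted p under 0.05 in limma 0 passed, and the median was 0.055. The lowest were H2afx (-0.17), Rad50 (-0.13) and Mre11a (-0.091), and the highest Brca1 (0.15), Chek1 (0.17) and Usp7 (0.19), all as mean log2 ratios. These kinases and sensors act through protein modification, which the arrays do not measure.

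The next list held CDKs, which the inhibitors bind alone or with cyclins, along with cyclins and Rb family and E2f genes. Of the CDKs, D and E cyclins, Rb family and E2f genes, 13 of 14 were tested. On both arrays 3 were negative and 3 positive, against 32.6% and 34.5% of tested probes, and the median was 0.013. By the brightest probe, Ccnd1 (cyclin D1) had the lowest mean at -0.35 ± 0.085, followed by Cdk6 at -0.15 and Ccne1 at -0.10. E2f3 had the highest at 0.27 ± 0.11, above Cdk4 at 0.20 and Rbl1 at 0.17. Further tested probes had means of 0.026 and -0.081 for E2f3, 0.014 for Ccne1, and -0.14 and -0.069 for Cdk6. The other INK4 inhibitors, Cdkn2c and Cdkn2d, had -0.39 and 0.97, and -0.15 and 0.38. Their brightest RNA was vehicle, at 618 and 410, and their dimmest wild-type plus TAM, at 249 and 275, as for Cdkn1c and the stromal sum.

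Genes of proliferating cells lay opposite to Cdkn1a. Of 16 listed, 15 were tested, 12 were positive on both arrays, against 34.5% of tested probes, and 0 negative, against 32.6%. At an unadjusted p under 0.05 in limma 9 were higher with Sox9, against 9.48%, and 0 at an adjusted p under 0.05. The median was 0.54, with 0.35 in the genotype and 0.74 in the treatment comparison. Cdc20, which activates the anaphase-promoting complex, had 0.91 and 1.66, Ccnb2 (cyclin B2) 0.66 and 1.63, and Birc5 (survivin) 0.50 and 1.52. The lowest means belonged to Mcm2 (0.0085), Bub1 (0.057) and Pcna (0.25). The Sox9-deleted RNAs, which were the brighter ones for Cdkn1a, were the dimmer ones for 12 of these 15 genes, against 26.9% of tested probes.

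**Figure D4:**
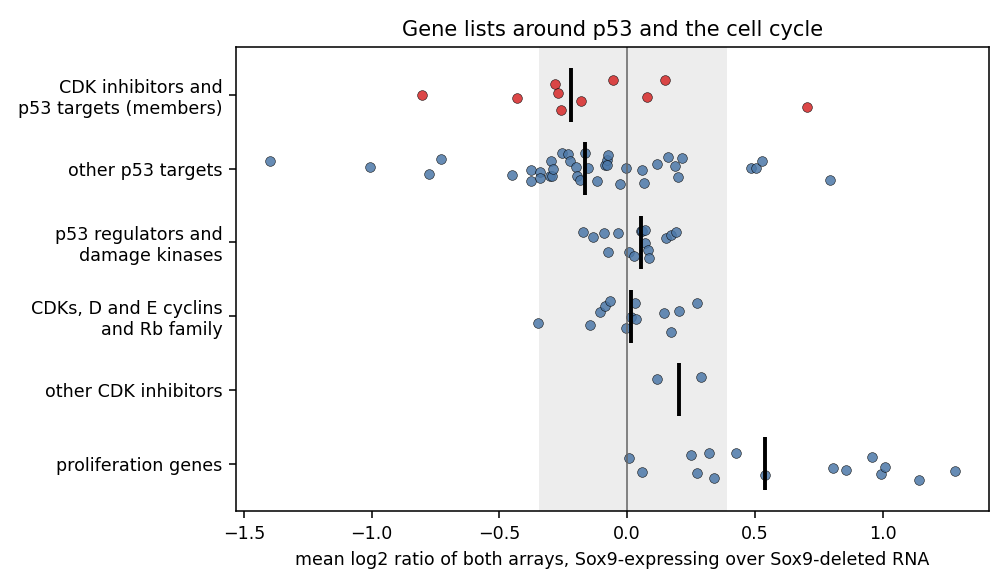
Mean log2 ratio of both arrays for each tested gene of 6 lists, 1 point per gene, with a black bar at the list median and gray from the 5th to the 95th percentile of all tested probes (-0.34 to 0.39). The medians were -0.22 for the members, -0.17 for the other p53 targets, 0.055 for p53 regulators and damage kinases, 0.013 for CDKs, cyclins and Rb family, 0.20 for the other CDK inhibitors and 0.54 for proliferation genes.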

How the data were processed

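Per the file headers, the authors scanned the arrays with Agilent Feature Extraction 10.5.1.1 (probe coordinates on mm9) and deposited, for each spot, mean intensities, local background medians and processed intensities. A second deposited table, by its correlation with the scanner's processed values (r = 0.987 and 0.986), holds log2 ratios with Cy5 on top. The submitters' processing notes name limma for it with no version or steps. Authors' log10 ratio columns were not used. In limma 3.58.1 (R 4.3.3), intensities were background-corrected (normexp, offset 50) and normalized by loess within arrays, 126 and 130 outlier spots were removed, and replicate spots were averaged per probe. Brightness per RNA is after Aquantile normalization between arrays. Probes well above background on more than 50% of spots in Cy5 of both arrays or in Cy3 of both arrays (22731) entered lmFit and eBayes (2-sided, Benjamini-Hochberg). With 1 residual degree of freedom, spread rests mostly on the prior (2.77 degrees of freedom, SD 0.119). Nothing says the cultures were independent, so p-values measure the spread between these 2 arrays. Each gene takes the values of its brightest probe. Tigar, Pidd1, Dram1 and Cdk1 were matched through RefSeq synonyms, and Mdc1 was not matched. One immune marker was left out and is not reported here. Promoter windows came from RefSeq (GRCm38.p6), and no coordinates were converted between builds. Probes were not assigned to exons or UTRs. The members, lists and rule for named genes (all members, and of each other list the genes 2-fold different on both arrays plus the 3 highest and 3 lowest) were chosen with earlier results of these data known. On simulated data with 200 changed of 22731 probes, 105 changed and 8 unchanged probes had an adjusted p under 0.05 (limma). Planted log2 changes of 2 came back as 1.62 or, for the negative ones, -1.59, and those of 1 as 0.75 or -0.80. Ratios were thus read as smaller than planted. No spot was marked as saturated (0 on each array), and the number of arrays limits the precision.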

Additional observations from a re-analysis of the deposited data

Results flagged for a closer look

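The 2 comparisons gave opposite signs for 7 of the 16 member probes, against 32.9% of all tested probes. None of these differences was tested, since each comparison has 1 array. The widest was Cdkn1c, with log2 ratios of -0.20 in the genotype and 1.61 in the treatment comparison. At Cdkn1b the signs were opposite at probe 2 (-0.81 and 0.31) and at probe 1 (-0.063 and 0.36). The values of Cdkn2a (-0.13 and 0.019), of the Trp53 probes (0.17 and -0.015, and 0.038 and -0.054) and of Trp53inp1 probe 2 (0.16 and -0.19) were closer to 0. Over the array, 336 tested probes (1.48%) had opposite signs and lay at least 1 apart on the log2 scale, as did Cdkn1c and Cdkn1b probe 2.

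Among genes of the other lists that the naming rule picked, 5 had opposite signs, namely Cdkn2c (-0.39 and 0.97), Cdkn2d (-0.15 and 0.38), Ccne1 (-0.43 and 0.22), Mcm2 (-0.22 and 0.23) and Bub1 (0.13 and -0.016), with the genotype comparison first. So did 4 genes named beside that rule, the p53 target Fas (-0.11 and 0.48) and the stromal markers Vim (-0.40 and 0.38), Col1a1 (-1.26 and 1.03) and Pdgfra (-0.72 and 0.47).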

How the results depend on the processing

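Cdkn1a and Ccng1 kept a negative mean in all 13 alternatives, from -0.96 to -0.37 and from -0.49 to -0.033, with adjusted p from 0.0885 to 0.702 and from 0.134 to 0.999 (limma). The lower ends are the treatment array alone, and with both arrays kept they were -0.84 and -0.44. The filters and the methods' t-test cannot change a mean, so those alternatives say nothing on its direction. At the brightest probes, median centring over all spots turned the means of Bbc3 (0.065), Cdkn2a (0.23), Cdkn2b (0.23), Mdm2 (0.018) and Trp53inp1 (0.13). It also turned the medians of the members (0.18) and of the other p53 targets (0.10). It gave 1 member lower and 2 higher on both arrays and 5 other p53 targets lower. Under it the median of the tested probes in the treatment comparison was 0.38, against 0.011 with loess, and the cause was not tested. With that centring, Cdkn1c, still of opposite signs on the arrays, passed at an adjusted p of 0.0273 (limma), as in no other setting. With the tested probes' median then set to 0 (added after the data were seen), Cdkn2a was 0.029 and Cdkn2b 0.036, the medians were -0.018 and -0.10, and 1 member was higher on both arrays. The median of the members was -0.16 with all probes of a gene averaged, where 1 member was higher on both arrays, and that of the other p53 targets was -0.21 with the scanner's processed signals. With 1 array left out, Cdkn1b ranged from -0.063 to 0.36 and Cdkn1c from -0.20 to 1.61, both negative on the genotype array alone, and Cdkn2a from -0.13 to 0.019 and Trp53 from -0.015 to 0.17, both of the other sign on the treatment array alone. Members with a positive value were then 1 to 3, other p53 targets with one 9 to 12, and the list median on the treatment array alone was -0.22. The 2 probes with an adjusted p under 0.05 became 0 with an offset of 10, no background subtraction, processed signals, arrays scaled to 1 spread or the methods' t-test, 68 with the authors' values, 522 with median centring and 275 with centring on the tested probes. Those settings with 0 had 3515, 4329, 3694, 4113 and 1925 probes at an unadjusted p under 0.05, against 3987.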
